A study of Homo sapiens with 18 samples.

Results

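The mitochondrial ribosomal protein genes were taken as all genes whose symbol begins with MRPL or MRPS followed by a digit and whose mean level was at least 10 normalized counts in each of 2 tables of RNA sequencing data. The rule found 76 genes among 81 matching symbols and 25369 genes per table. The 5 symbols left out were MRPL23-AS1 and MRPS18B, listed at 0 in all libraries, MRPS24 with 2 and 9 reads in all, and the pseudogenes MRPL42P5 and MRPL45P2. Whether such values mean that the transcripts were absent, or that their reads were not counted, was not tested. The 76 comprise 50 proteins of the large subunit, 25 of the small subunit and 1 pseudogene, MRPS31P5, which had the lowest mean level in both tables. The values come from the human B cell lymphoma lines JEKO1 and MAVER, both derived from mantle cell lymphoma, treated in culture for 6 h. Each of 6 groups held 3 libraries with the letters A, B and C. JEKO1 cells had been given DMSO, the solvent, or the agent labelled IB. MAVER cells had been given DMSO, IB, or the agents labelled KPT and PU. IB was taken to be ibrutinib (0.4 µM), which inhibits the kinase BTK, and KPT to be selinexor (1.5 µM), which blocks the nuclear export receptor XPO1, the inhibitors the study names. What PU stands for is not defined in any source used here. The replicates are called biological, with no account of how cultures were separated; a p-value here covers only the spread among the libraries of a group, which may be technical. Each line stands for 1 tumour.

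Mitochondria carry their own ribosome, built from RNAs encoded by the mitochondrial genome and from proteins encoded in the nucleus, made in the cytosol and imported. This ribosome makes the few respiratory chain subunits that the mitochondrial genome encodes. Part of its proteins have counterparts in bacterial ribosomes and the others were added during evolution; nuclear genes of mitochondria are known targets of the factors NRF1, GABP (an ETS factor) and YY1 and of PGC-1 family coactivators, and MYC is known to raise mitochondrial biogenesis.

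Totals ran from 5374226 to 17040599 reads per library. B cell genes such as CD79A and the mantle cell lymphoma gene CCND1 were high in every group, with CD79A means of 4718 to 6556 normalized counts, while the T cell genes CD3D and CD8A averaged at most 2.19 and 1.03. The mean of XPO1 was 5232 normalized counts with DMSO and 11243.5 with KPT in MAVER, a log2 fold change of 1.10 ± 0.04 (SE). The ribosomal RNA precursor RNA45S5 was highest in KPT replicate A (53819), KPT replicate C (66933) and JEKO1 DMSO replicate C (65331), against 7919 to 32274 in the other libraries. The part of this in the results was not tested. Median fold changes without those KPT libraries stand beside the KPT results. In the JEKO1 and MAVER comparisons of IB with DMSO, 1415 genes were called in both and 1260 of these in opposite directions. An exchange of the JEKO1 labels and an opposite response of the lines cannot be told apart, so each JEKO1 direction holds for the labels as given.

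Promoter sequence was read from RefSeq (GRCh38.p14) for 6 genes that the results turn on: MRPL12, MRPL17, MRPL20, MRPS34 and MRPL52, which fell with both KPT and PU, and MRPS6, which rose with PU. Each is given 5′ to 3′ on the gene's strand as the 120 bases before the annotated start. Capitals mark matches, on either strand, to a core ETS motif (CCGGAAG, or CTTCCGG on the other strand), the YY1 motif (10 letters, in capitals in the MRPL52 sequence), the NRF1 motif (10 letters, in capitals in the MRPL17 sequence) or an E-box (CACGTG), the element that MYC and related factors bind.
MRPL12, chr17:81703247-81703366, plus strand: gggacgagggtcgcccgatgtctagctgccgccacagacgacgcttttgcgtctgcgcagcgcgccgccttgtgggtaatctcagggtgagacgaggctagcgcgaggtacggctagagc
MRPL17, chr11:6683341-6683460, minus strand: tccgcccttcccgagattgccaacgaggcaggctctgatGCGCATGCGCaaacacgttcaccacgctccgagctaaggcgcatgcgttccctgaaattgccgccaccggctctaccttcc
MRPL20, chr1:1407294-1407413, minus strand: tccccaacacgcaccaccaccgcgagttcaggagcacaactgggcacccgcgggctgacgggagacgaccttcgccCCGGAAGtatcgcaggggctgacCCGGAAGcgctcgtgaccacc
MRPS34, chr16:1773135-1773254, minus strand: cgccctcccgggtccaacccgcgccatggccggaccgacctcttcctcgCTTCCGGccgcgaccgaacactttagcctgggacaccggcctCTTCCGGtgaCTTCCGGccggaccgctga
MRPL52, chr14:22829767-22829886, plus strand: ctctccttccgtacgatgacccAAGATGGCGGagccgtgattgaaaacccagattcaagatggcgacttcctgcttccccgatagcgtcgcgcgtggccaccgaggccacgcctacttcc
MRPS6, chr21:34073458-34073577, plus strand: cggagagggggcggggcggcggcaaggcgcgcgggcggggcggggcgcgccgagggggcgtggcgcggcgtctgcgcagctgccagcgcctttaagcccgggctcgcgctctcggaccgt

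Within 250 bases before to 50 bases after an annotated start, 66 of the 76 genes could be matched to a promoter. The ETS motif stood in 29 of the 66 (43.9%), against 12.2% of 27305 genes with a promoter and 24.5% of the 8346 of these that passed the filter in MAVER. The YY1 motif stood in 11 (16.7%), against 1.46% and 3.77%. The E-box stood in 9 (13.6%), against 8.77% and 13.3%, and the NRF1 motif in MRPL17 alone (1.52%), against 1.52% and 2.89%. The motifs may overlap in a promoter and a match is a description of letters, not a binding site; the ETS match of MRPL52 reaches across the start and is not in the stretch printed above. With KPT, 12 of the 29 genes with the ETS motif fell and 6 rose, and 18 of the 37 without it fell and 6 rose. With PU these counts were 11 fell and 4 rose, and 22 fell and 3 rose. Among all genes tested, 28.5% fell and 27.3% rose with KPT, and 27.5% fell and 27.6% rose with PU. Calls among all genes with the ETS motif were not counted.

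The summed level of the 76 genes was steady among replicates. In MAVER it was 56097 ± 451 normalized counts with DMSO, 54629 ± 1125 with IB, 50725.5 ± 120 with KPT and 50025 ± 1146 with PU (mean ± SD, n = 3 libraries each). The 3 KPT and 3 PU libraries all lay below the 3 DMSO libraries. In JEKO1 the sum was 64242 ± 496 with DMSO and 66474 ± 682 with IB, with all IB libraries above all DMSO libraries. Over all 18 libraries the genes held 0.50% to 0.67% of the counts, and the ratio of large- to small-subunit counts was 1.92 to 2.03. The tables were normalized separately, so the sums of the lines are not compared.

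**Figure D1:**
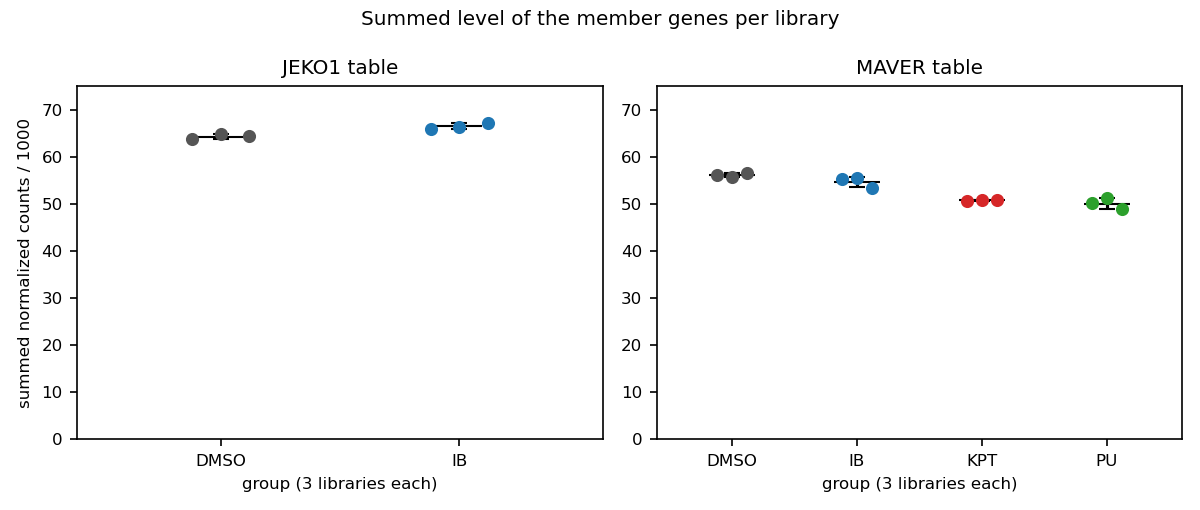
Summed normalized counts in units of 1000 of the 76 genes in each library, by group, with the mean and SD (n = 3). In MAVER the KPT mean of 50725.5 and the PU mean of 50025 lie below the DMSO mean of 56097.

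Per kilobase of the median annotated coding transcript (GENCODE v29, 75 genes), levels spread widely among proteins that the ribosome holds together. With DMSO in MAVER they ran from 94.3 to 3087 normalized counts per kb with a median of 609, and MRPL51, a large-subunit protein with no bacterial counterpart, was highest. With DMSO in JEKO1 they ran from 154 to 3260 with a median of 675, and MRPL49 was highest. MRPL41 (154 in JEKO1 and 165 in MAVER) and MRPL22 (154 and 128) were among the lowest on this scale, which depends on the annotated lengths.

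KPT lowered more of the genes than it raised. In the limma test with Benjamini-Hochberg adjustment over all genes, 33 of the 76 (43.4%) fell at an adjusted p under 0.05, against 28.5% of all genes tested, and 13 (17.1%) rose, against 27.3%. The median log2 fold change of the 76 was -0.10, beside -0.001 for all genes tested. Changes were small: 49 genes lay within 0.25 of 0 on the log2 scale and 5 beyond 0.5. Without KPT replicates A and C, the 2 KPT libraries rich in RNA45S5, the median was -0.09, beside -0.002 for all genes tested. Replicate B was then the only KPT library and its spread was taken from the other groups, so calls are not counted for this setting. By origin, 26 of the 46 proteins with a bacterial counterpart fell and 4 rose (median -0.17), and 7 of the 29 without one fell and 9 rose (median -0.01); the difference between these classes was not tested. By subunit, 21 of 50 large-subunit genes and 12 of 25 small-subunit genes fell.

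MRPL12, the stalk protein of the large subunit that also binds the mitochondrial RNA polymerase, changed most with KPT. It read 1612, 1748 and 1685 normalized counts with DMSO, 854, 807 and 851 with KPT, and 1073, 1116 and 1078 with PU in replicates A, B and C. The 3 groups did not overlap, with KPT lowest. The log2 fold change was -1.01 ± 0.05 (SE) with KPT (limma, adjusted p = 3.63e-19) and -0.63 ± 0.05 with PU (adjusted p = 3.82e-13), and KPT lay below PU by -0.38 ± 0.05 (adjusted p = 9.88e-08). Other proteins of the stalk had different values. MRPL10, which anchors MRPL12, had a KPT fold change of 0.001 ± 0.07 (adjusted p = 0.990) and rose with PU by 0.34 ± 0.07 (adjusted p = 0.000166). MRPL11, at the base of the stalk, rose with KPT by 0.29 ± 0.06 (adjusted p = 7.49e-05) and was not called with PU (0.09 ± 0.06, adjusted p = 0.215).

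MRPL4, a conserved large-subunit protein, read 1657, 1703 and 1674 with DMSO, 1054, 1023 and 1093 with KPT, and 1008, 1060 and 1155 with PU. Both drug groups lay below DMSO and overlapped each other. The fold changes were -0.67 ± 0.05 with KPT (limma, adjusted p = 1.47e-13) and -0.64 ± 0.05 with PU (adjusted p = 3.04e-13), and KPT and PU differed by -0.02 ± 0.05 (adjusted p = 0.744). MRPL20, another conserved large-subunit protein, whose promoter above holds the ETS motif at 2 places, read 1371, 1377 and 1466 with DMSO, 845, 916 and 939 with KPT, and 1080, 1117 and 1095 with PU. Its log2 fold change was -0.64 ± 0.05 with KPT and -0.36 ± 0.05 with PU. MRPS34, a small-subunit protein without a bacterial counterpart, read 1516, 1706 and 1770 with DMSO, 1108, 1100 and 1192 with KPT, and 996, 1069 and 1066 with PU; its log2 fold change was -0.55 ± 0.06 with KPT and -0.67 ± 0.06 with PU. In both of these genes, no library of either drug reached the DMSO range. MRPS23 (-0.50 ± 0.06) and MRPS26 (-0.47 ± 0.07), both small-subunit proteins, complete the 6 with the largest fall with KPT.

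The largest rises with KPT were smaller than the largest falls. MRPS14, a conserved small-subunit protein, read 301, 255 and 276 with DMSO, 366, 412 and 319 with KPT, and 235, 233 and 208 with PU. KPT lay above DMSO and PU below it, without overlap. The fold changes were 0.39 ± 0.09 with KPT (limma, adjusted p = 0.000494) and -0.30 ± 0.09 with PU (adjusted p = 0.00706). MRPL53 rose with KPT by 0.35 ± 0.07, MRPL33 by 0.34 ± 0.10, MRPS21 by 0.29 ± 0.07 and MRPS36 by 0.28 ± 0.10. MRPS36 is now known mainly as a part of the oxoglutarate dehydrogenase complex; it was not called without MAVER DMSO replicate B (0.21, adjusted p = 0.101) or without KPT replicate B (0.20, adjusted p = 0.121).

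**Figure D2:**
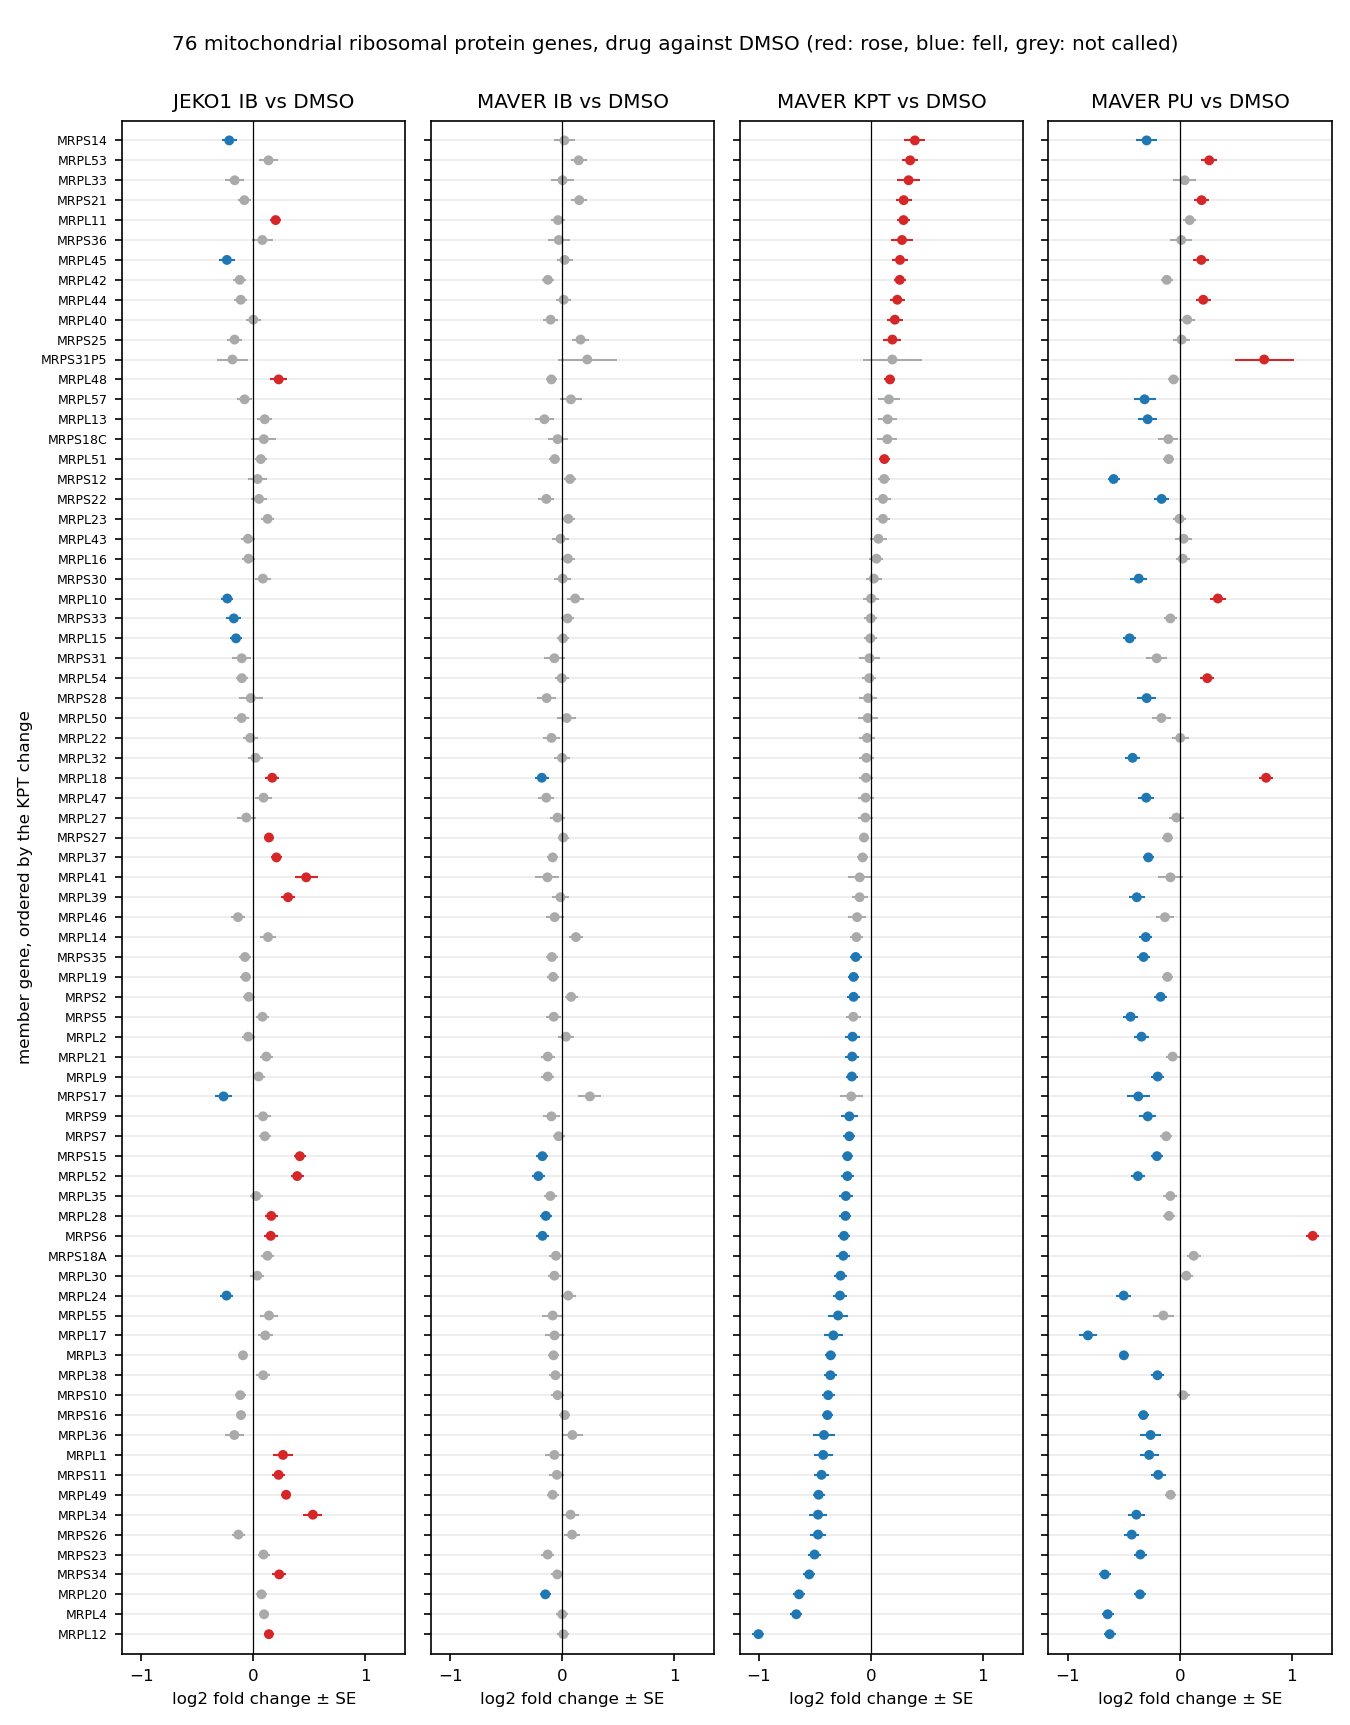
Log2 fold change ± SE of each of the 76 genes (rows, ordered by the KPT change) for 4 comparisons of a drug with DMSO; red rose, blue fell, grey was not called. MRPL12 stands lowest with KPT at -1.01, MRPS6 stands highest with PU at 1.19, and no gene exceeds 0.25 with IB in MAVER.

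PU also lowered more of the genes than it raised: 37 of 76 (48.7%) fell, against 27.5% of all genes tested, and 9 (11.8%) rose, against 27.6%. The median was -0.16, beside 0.007 for all genes tested, and 10 genes lay beyond 0.5. By origin, 26 of 46 genes with a bacterial counterpart and 11 of 29 without one fell. By subunit, 22 of 50 large-subunit genes and 15 of 25 small-subunit genes fell.

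The largest change with PU was a rise. MRPS6, a conserved small-subunit protein, read 790, 746 and 766 with DMSO, 693, 682 and 664 with IB, 655, 690 and 606 with KPT, and 1802, 1800 and 1649 with PU. PU stood far above the other groups, and the IB and KPT groups lay below DMSO. MRPS6 overlaps SLC5A3 on the same strand, and SLC5A3 also rose with PU (1.70 ± 0.05). Reads of these genes may be shared, and the part of SLC5A3 in the MRPS6 value was not tested. The PU fold change of MRPS6 was 1.19 ± 0.06 (limma, adjusted p = 7.59e-21) and its KPT fold change -0.24 ± 0.06 (adjusted p = 0.000433). Without KPT replicates A and C, its KPT fold change was -0.15. MRPL18, a large-subunit protein, read 557, 528 and 596 with DMSO, 570, 520 and 538 with KPT, and 947, 963 and 957 with PU. It rose with PU by 0.77 ± 0.06 (adjusted p = 1.49e-13) and was not called with KPT (-0.04 ± 0.06, adjusted p = 0.574). The pseudogene MRPS31P5 rose by 0.75 ± 0.26 (adjusted p = 0.0142) at 19.1 to 51.0 normalized counts in the DMSO and PU libraries; its reads cannot be told apart safely from those of MRPS31, and the call was lost without MAVER DMSO replicate B (0.58, adjusted p = 0.0910) or PU replicate B (0.62, adjusted p = 0.0841).

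MRPL17, a conserved large-subunit protein and the 1 gene with the NRF1 motif in the promoter above, fell most with PU. It read 493, 491 and 479 with DMSO, 395, 336 and 434 with KPT, and 266, 301 and 261 with PU. The 3 groups were ordered without overlap, with PU lowest; the fold changes were -0.82 ± 0.08 with PU (limma, adjusted p = 5.16e-11) and -0.34 ± 0.08 with KPT (adjusted p = 0.000761). MRPS12, the counterpart of the bacterial decoding-site protein S12, read 1525, 1601 and 1406 with DMSO, 1711, 1538 and 1668 with KPT, and 972, 1025 and 1007 with PU. It fell with PU by -0.59 ± 0.05 (adjusted p = 1.96e-12), while the KPT and DMSO libraries overlapped (0.12 ± 0.05, adjusted p = 0.0576). MRPL24, a conserved large-subunit protein, fell with PU by -0.50 ± 0.07.

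**Figure D3:**
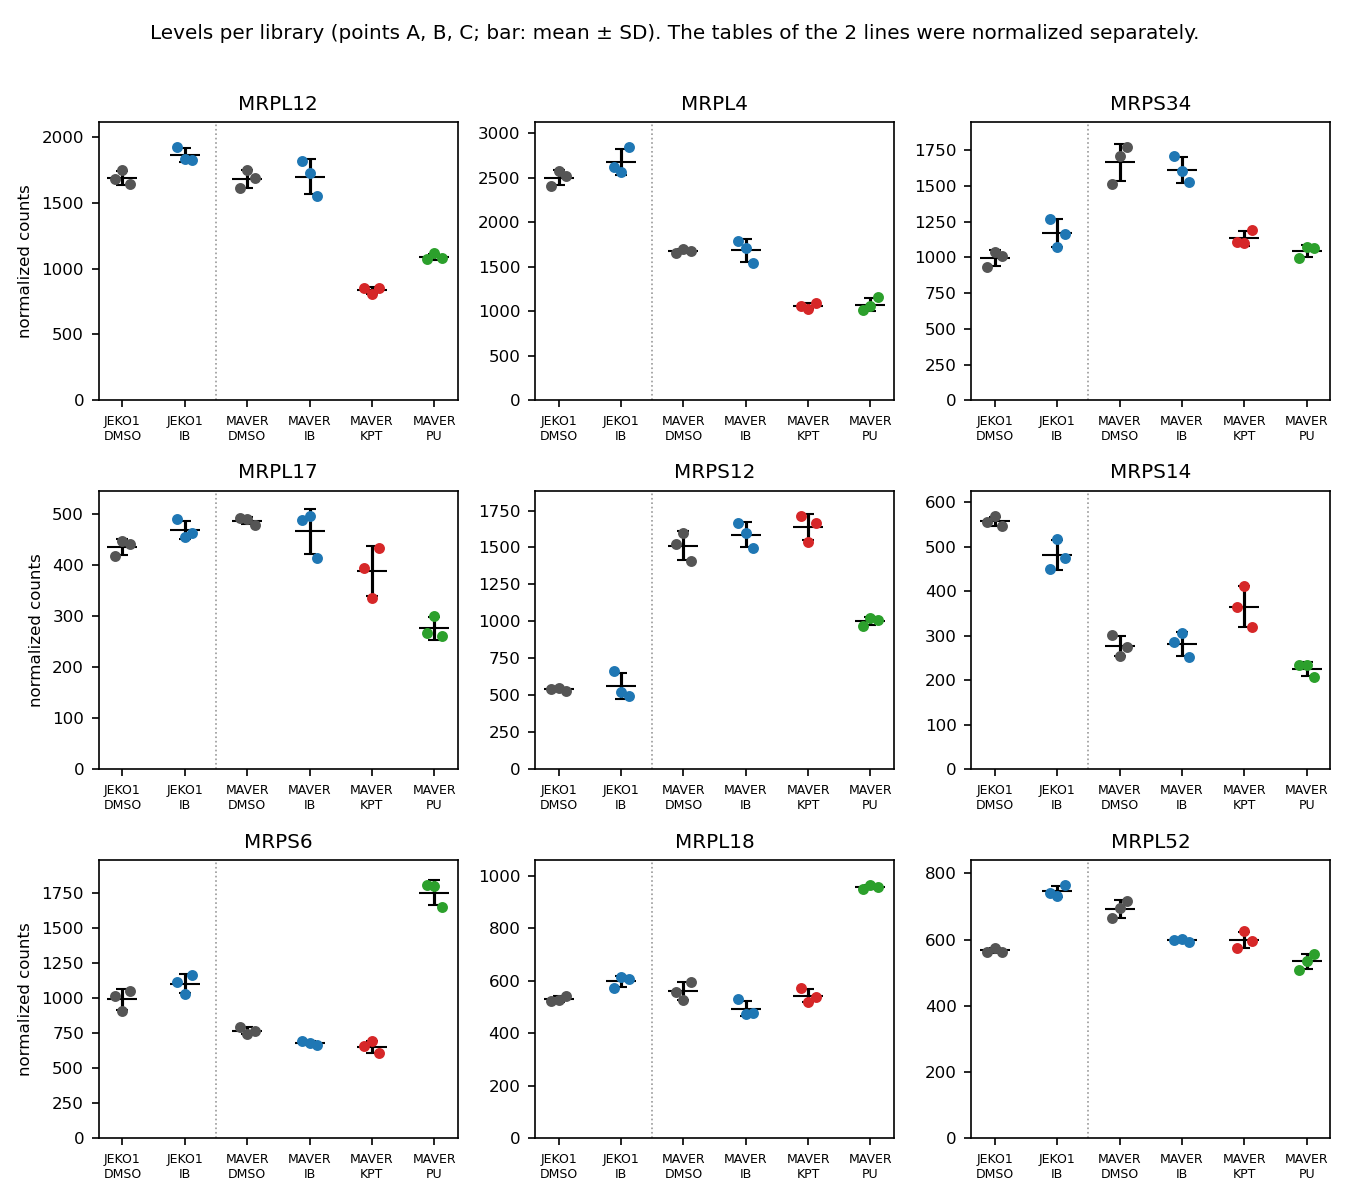
Normalized counts of 9 genes in each library (points A, B, C) with the mean and SD of the group (n = 3); the dotted line parts the separately normalized tables. MRPL12 drops to 807 to 854 with KPT, MRPS6 climbs to 1649 to 1802 with PU, and MRPS14 stands above DMSO with KPT and below it with PU.

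KPT and PU share their DMSO libraries, so only their values are set side by side. MRPS14 rose with KPT and fell with PU, and MRPS6 did the opposite, with the values given above. The direct test of KPT against PU found 27 genes (35.5%) higher with KPT, against 28.6% of all genes, and 15 (19.7%) lower, against 28.3%. Without KPT replicates A and C, 22 were higher and 11 lower. MRPS12 was higher with KPT by 0.71 ± 0.05 (limma, adjusted p = 1.13e-14), MRPS14 by 0.69 ± 0.09, MRPL17 by 0.48 ± 0.08 and MRPL57 by 0.47 ± 0.10. MRPS6 was lower by -1.43 ± 0.06 (adjusted p = 1.27e-23), MRPL18 by -0.82 ± 0.06, MRPS10 by -0.41 ± 0.06 and MRPL49 by -0.39 ± 0.05. The paralogs MRPS18A, in the large subunit, and MRPS18C, in the small, went opposite ways, at -0.37 ± 0.06 and 0.25 ± 0.09. MRPS18C lost its call without PU replicate A (0.22, limma, adjusted p = 0.0659) or without PU replicate C (0.22, adjusted p = 0.0548). Without KPT replicates A and C, its fold change was 0.27.

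IB changed few of the genes in MAVER. No gene rose at an adjusted p under 0.05 by limma, against 10.1% of all genes, and 6 (7.89%) fell, against 9.65%; at an unadjusted p under 0.05 these counts were 5 and 10, and edgeR called 1 higher and 6 lower. The 6 that fell were MRPL52, MRPL18, MRPS15, MRPS6, MRPL20 and MRPL28, with log2 fold changes of -0.15 to -0.21. MRPL52, a large-subunit protein without a bacterial counterpart, read 665, 694 and 718 with DMSO and 597, 602 and 593 with IB, without overlap. Its fold change was -0.21 ± 0.06 (limma, adjusted p = 0.0103). None of the 6 calls held without MAVER DMSO replicate C, and 2 genes were called without DMSO replicate A, IB replicate B or IB replicate C. KPT against IB, 2 drug groups that share no library, gave 24 genes (31.6%) lower with KPT, against 28.2% of all genes, and 13 (17.1%) higher, against 27%. MRPL12 was lower with KPT than with IB by -1.02 ± 0.05. Without KPT replicates A and C, 20 were lower and 8 higher.

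In JEKO1, with the labels as given, 17 genes (22.4%) rose with IB, against 21.9% of all genes, and 7 (9.21%) fell, against 20.2%; in either direction 24 (31.6%) were called, against 42% of all genes. The median was 0.05. MRPL34, a conserved large-subunit protein, read 216, 226 and 251 with DMSO and 340, 330 and 331 with IB, without overlap, a fold change of 0.53 ± 0.08 (limma, adjusted p = 3.69e-05). MRPL41, a large-subunit protein without a bacterial counterpart, read 192, 207 and 184 with DMSO and 317, 252 and 246 with IB (0.47 ± 0.10). All IB libraries stood above all DMSO libraries in both genes. MRPS15, a conserved small-subunit protein, read 887, 899 and 946 with DMSO and 1207, 1180 and 1259 with IB (0.42 ± 0.05). MRPL52 read 563, 576 and 564 with DMSO and 742, 730 and 764 with IB (0.39 ± 0.06). Of those that fell, MRPS17, a conserved small-subunit protein, read 311, 340 and 350 with DMSO and 272, 276 and 284 with IB (-0.27 ± 0.08, limma, adjusted p = 0.0111). Without JEKO1 DMSO replicate B, 3 genes fell; MRPL45 (-0.22, adjusted p = 0.0511), MRPS14 (-0.20, adjusted p = 0.0556) and MRPS33 (-0.16, adjusted p = 0.120) were among those lost.

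The IB effect was tested between the lines as the effect in JEKO1 less that in MAVER. It was higher in JEKO1 for 19 genes (25%), against 21.7% of all genes, and lower for 6 (7.89%), against 19.7%. The difference was 0.60 ± 0.08 for MRPL52 (limma, adjusted p = 5.05e-07) and 0.59 ± 0.07 for MRPS15 (adjusted p = 1.91e-07), which rose in JEKO1 and fell in MAVER. The 5 of the 76 genes called in both lines all had opposite directions, as did 1260 of the 1415 such genes among all genes. With the JEKO1 labels exchanged, the effect was higher for 1 gene and lower for 4. Over all 10591 genes tested it was then higher for 1044 and lower for 1380, against 2301 and 2084 with the labels as given. In either direction, KPT and PU each changed 46 genes (60.5%), against 55.9% and 55.1% of all genes, and IB in MAVER 6 (7.89%), against 19.8%. MRPL52, MRPS15 and MRPS6 were called in each of the 4 comparisons of a drug with DMSO, 3 of which share their DMSO libraries. The share of all genes called in each of the 4 was not counted. The JEKO1 call of MRPS6 was marginal (0.16 ± 0.06, limma, adjusted p = 0.0491) and was lost without DMSO replicate A or B or IB replicate A or C, with adjusted p of 0.0661 to 0.281. Without KPT replicates A and C, the KPT fold change of MRPL52 was -0.15.

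Calls in other lists of mitochondrial genes are given beside those of all genes tested. With KPT 28.5% of all genes fell and 27.3% rose, and with PU 27.5% fell and 27.6% rose. Of 25 mitoribosome assembly factors, 13 fell and 2 rose with KPT (median -0.20), and 15 fell and 3 rose with PU (median -0.29). MPV17L2, which takes part in assembling the ribosome, fell with KPT (log2 fold change -1.74 ± 0.10), and MRM1, which methylates the large ribosomal RNA, fell with PU (-1.44 ± 0.12). Of 17 translation factors, 5 fell and 3 rose with KPT (median -0.03), near the share of all genes that fell. With PU, 11 fell and 1 rose (median -0.20). The elongation factor GFM1 fell with KPT (-1.14 ± 0.05), and GFM2, a ribosome recycling factor, rose with PU (0.81 ± 0.06). Of 25 genes of protein import, 15 fell and 1 rose with KPT, and 16 fell and 3 rose with PU; TOMM40, the import channel of the outer membrane, fell with both (-1.12 ± 0.06 with KPT and -0.70 ± 0.06 with PU). Of 18 genes of mitochondrial transcription and RNA handling, 7 fell and 2 rose with KPT, and 13 fell and 0 rose with PU. POLRMT, the mitochondrial RNA polymerase that MRPL12 binds, fell with both (-0.86 ± 0.08 with KPT and -0.77 ± 0.08 with PU). Of 7 mitoribosomal proteins listed for their other names, 4 fell with KPT and 5 with PU; this list also holds MRPL57, one of the 76.

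Genes of the cytosolic ribosome mostly rose with KPT and PU. Of 78 cytosolic ribosomal protein genes tested in MAVER, 71 rose and 0 fell with KPT (median 0.34), and 65 rose and 2 fell with PU (median 0.27). In JEKO1, labels as given, 58 of 76 such genes fell with IB and 0 rose (median -0.26), where 20.2% of all genes fell and 21.9% rose. In MAVER, 17 of 78 rose with IB and 0 fell (median 0.06), where 10.1% of all genes rose and 9.65% fell. Of 76 respiratory chain subunits, 41 rose and 11 fell with KPT (median 0.16), and 16 rose and 23 fell with PU (median 0.01). These medians are descriptions beside those of the mitochondrial ribosomal proteins; their difference was not tested.

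**Figure D4:**
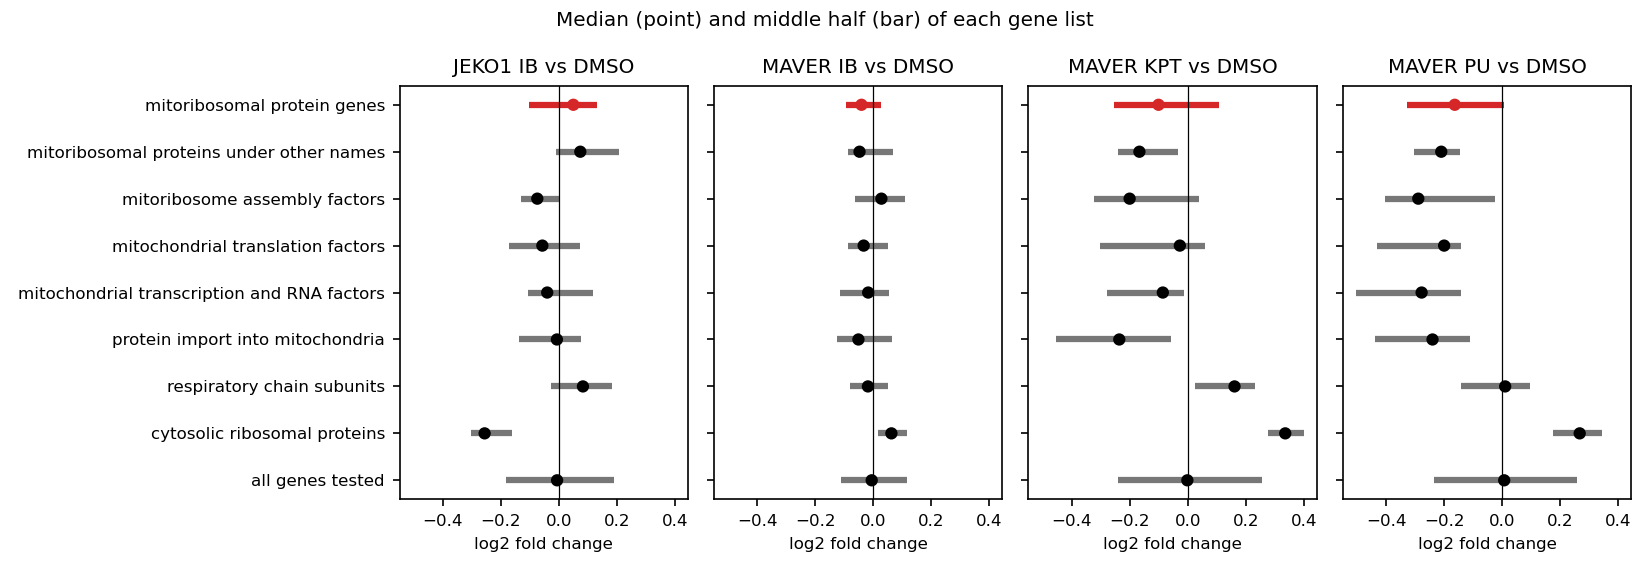
Median log2 fold change (point) and middle 50% of genes (bar) for the mitoribosomal genes (red), other gene lists and all genes tested, in 4 comparisons of a drug with DMSO. With KPT the mitoribosomal median is -0.10 and the cytosolic ribosomal median 0.34.

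Among 7 tested regulators of mitochondrial biogenesis, the coactivators PPARGC1B and PPRC1 fell with both drugs: the log2 fold changes were -1.85 and -0.92 with KPT and -1.68 and -1.15 with PU. ESRRA, a nuclear receptor partner of PGC-1 coactivators, fell with KPT (-1.11 ± 0.09) and with PU (-0.25 ± 0.09). GABPA, the DNA-binding part of GABP, rose with KPT by 0.24 ± 0.06 and with PU by 0.14 ± 0.06. MYC rose with KPT by 0.31 ± 0.04 and was not called with PU (-0.07 ± 0.04, adjusted p = 0.170). YY1 was not called with KPT (0.04 ± 0.05, adjusted p = 0.441) and fell with PU (-0.16 ± 0.05). In JEKO1 with IB, labels as given, 3 of the 7 fell, MYC (-0.67 ± 0.04), GABPA (-0.28 ± 0.06) and NRF1 (-0.25 ± 0.06). ESRRA (0.45 ± 0.08) and PPARGC1B (0.43 ± 0.08) rose. In MAVER with IB, MYC rose (0.20 ± 0.04), PPARGC1B fell (-0.36 ± 0.11) and the other 5 were not called.

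Many of the genes lie close to other genes. In GENCODE v29, 28 of 75 located genes had a protein-coding gene on the opposite strand starting within 1000 bases, and 36 overlapped a protein-coding gene, 12 of them on the same strand and 25 on the opposite strand. The libraries were stranded, but no source used here says whether counting used strand, so reads of overlapping genes may be shared. Neighbours were looked up for all located genes. With KPT, both genes of an opposite-strand pair starting within 1000 bases were called in 4 of 23 tested pairs, 3 in the same direction. With PU these counts were 6 of 23 and 5. With IB, both were called in 2 of 24 pairs in JEKO1 and 2 of 23 in MAVER, all in the same direction. MRPL46 and MRPS11 are each other's neighbour, so their pair was counted from each side. Among single genes, 55.9% of all tested were called with KPT, 55.1% with PU, and 42% (JEKO1) and 19.8% (MAVER) with IB. The share among all neighbouring pairs was not counted. The neighbours of 3 genes are given as examples, picked after their values had been seen, and other neighbours were also called. MRPS6 overlaps SLC5A3, an inositol transporter gene, on the same strand; SLC5A3 read 1171 ± 7.07 normalized counts with DMSO and 3817 ± 217 with PU (n = 3, log2 fold change 1.70 ± 0.05), and its part in the MRPS6 value was not tested. MRPL18 starts within 1000 bases of TCP1, a chaperonin subunit gene on the opposite strand, which rose with PU by 0.51 ± 0.05. MRPS14 overlaps CACYBP on the opposite strand; CACYBP rose with PU by 1.46 ± 0.05 while MRPS14 fell.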

How the data were processed

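The data are RNA sequencing of 18 libraries. The authors deposited a table of normalized counts for each line, a signal equal to reads divided by 1 factor per library. Per the labels' protocols, stranded libraries were aligned with STAR, abundance was estimated with Cufflinks and drug was compared with DMSO by DESeq2; the submitters' processing notes add hg19 and FastQC. No source used here gives the counter, its strand setting or its annotation. All values (100%) were whole multiples of 1 read within 0.01 read, so reads were recovered for the count tests.

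Tests used R 4.3.3 and limma 3.58.1 (lmFit, eBayes with trend) of log2(normalized count + 1), on genes averaging at least 10 in their table, with Benjamini-Hochberg adjustment over all genes and calls at an adjusted p under 0.05. Fold changes are on that scale, which understates changes of low genes. The 4 MAVER groups were fitted together. edgeR 4.0.16 and DESeq2 1.42.0 on recovered reads were alternatives: edgeR with TMM factors called 13 genes higher and 34 lower with KPT. Named genes are those with the largest rises and falls among the calls of a comparison, those called in all 4 drug comparisons and the MRPS18 paralogs; others are named where a role or neighbour is described. The members, lists and tests were chosen with earlier results of these data known. The test did not pair libraries by replicate letter. Same-letter deviations correlated at -0.0363 to 0.118 in 3 JEKO1 pairs and at -0.0918 to 0.104 in 18 MAVER pairs. These values do not settle whether the letters mark pairs. With IB in JEKO1, a replicate block called 2819 of all genes higher and 2688 lower, against 2538 and 2341 without it. The test was checked on simulated data. Promoters are from RefSeq GRCh38.p14, a build other than the authors'; no other coordinates are given.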

Additional observations from a re-analysis of the deposited data

Results flagged for a closer look

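The IB effect differed between the lines by a test of the difference itself (limma interaction term, JEKO1 effect minus MAVER effect). For 19 genes (25%) the effect was higher in JEKO1, against 21.7% of all genes, and for 6 (7.89%) it was lower, against 19.7%. The largest differences were 0.60 for MRPL52, 0.60 for MRPL41, 0.59 for MRPS15 and 0.46 for MRPL34 on the one side, and -0.51 for MRPS17, -0.35 for MRPL10, -0.33 for MRPS25 and -0.29 for MRPL24 on the other. An exchange of the JEKO1 labels and a difference between the lines cannot be told apart.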

How the results depend on the processing

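The counts of genes called with KPT and with PU against DMSO stayed within 1.5 times their values under every alternative run that left more than 1 library in each group. The other counts moved in these settings. With IB in JEKO1, 10 genes were higher with eBayes without trend and 12 were lower with a replicate block. Leaving out each library in turn gave 3 to 7 lower. Over all 11609 genes tested, 2091 were higher without trend, against 2538 in the main run, and 2688 were lower with the block, against 2341. With IB in MAVER, 2 were lower with eBayes without trend and 0 to 5 when each library was left out in turn. Over all 11099 genes tested, 801 were lower without trend, against 1071 in the main run. In MAVER, 1 of the 76 was higher with the compared groups alone, with edgeR and TMM factors, and with edgeR and DESeq2 size factors. Without the libraries richest in RNA45S5, the count of genes higher with KPT than with IB also moved, with only KPT replicate B left. With the JEKO1 labels exchanged, 1 gene had a higher IB effect in JEKO1, beside 1044 of all 10591 genes tested (2301 with the labels as given). The named differences turned to -0.18 for MRPL52, -0.34 for MRPL41, -0.24 for MRPS15, -0.61 for MRPL34, 0.017 for MRPS17, 0.12 for MRPL10, 0.0025 for MRPS25 and 0.18 for MRPL24. The exchange reverses the JEKO1 effect, so a difference must change sign wherever that effect is larger in size than the MAVER effect. The causes of the other moves were not tested. For 76 named values under 1458 alternatives, 1384 kept their call, 66 lost it with the same sign, and 8, those with the JEKO1 labels exchanged, changed sign; of these 8, MRPL34 (adjusted p = 0.000354) and MRPS15 (adjusted p = 0.0168) were called in the new direction and the others were not called (adjusted p of 0.0975 to 0.991). Replicate letters are shared only as letters; the replicate block gave 21 higher and 12 lower with IB in JEKO1, and 13 higher and 33 lower with KPT. Totals ran from 5374226 to 17040599 reads, and how depth bears on the genes with few reads was not tested.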
